A study of Mus musculus with 7 samples.

Results

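The genes described here are the 6 mouse actin isoforms (Acta1, Acta2, Actb, Actc1, Actg1 and Actg2) and 4 partners of smooth muscle actin in contractile cells (Tagln, Cnn1, Myh11 and Myl9). They were taken by symbol after the transcript identifiers in the deposited tables were mapped to mouse genes. The rule uses no measured value, but the set was proposed with earlier results of these data known. They make up 10 of the 42689 annotated genes, and of the 44818 features, that carried a value. The study addressed TGF-β activated kinase 1 (TAK1), a kinase downstream of TGF-β receptors, in mesenchymal cell differentiation and in heterotopic ossification, which is bone formed in soft tissue after injury. RNA-seq was run on 7 libraries of hindlimb tendon from mice of C57BL/6 background, cut out between the calf muscle and the heel bone. No label for these libraries names a TAK1 allele or an inhibitor.

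Injured mice received a partial-thickness burn of 30% of the body surface (a block at 60 °C held on the back for 18 s) together with a surgical cut through the Achilles tendon of the left leg, and were sampled at 3 weeks. The tenotomy group was the cut tendon (2 libraries). The contralateral group was the uncut tendon of the right leg of burned and cut mice (3 libraries), so that its animals carried the burn and the opposite wound. The uninjured group came from wild-type mice with neither burn nor cut (2 libraries). The labels do not say which contralateral and tenotomy libraries share a mouse, how many mice went into a library, or the age of the animals. They also do not say that libraries of a group came from separate animals, so p-values measure only the spread between these libraries, which may be technical.

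Actins polymerise into the filaments on which myosin motors pull. Acta1 and Actc1 encode the skeletal and cardiac forms of the sarcomere, Acta2 and Actg2 the vascular and enteric smooth muscle forms, and Actb and Actg1 the cytoplasmic forms found in nearly all cells. Fibroblasts that turn into myofibroblasts in healing wounds take up Acta2 into stress fibres, a change that TGF-β drives, and Acta2, Tagln and Cnn1 are also the usual markers of the smooth muscle around blood vessels. Many of these genes share control by serum response factor (SRF), which binds a short element called the CArG box.

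The actins are alike in coding sequence, and how reads are assigned to one of them depends on the positions where they differ. To show such positions, the last 60 coding bases of each actin, up to the stop codon, are given below from the GENCODE M21 transcripts, with capitals at the 19 positions that vary among the 6.
Acta1: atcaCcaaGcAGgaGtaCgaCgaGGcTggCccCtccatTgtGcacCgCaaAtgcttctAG
Actc1: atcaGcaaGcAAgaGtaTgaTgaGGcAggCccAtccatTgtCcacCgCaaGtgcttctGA
Acta2: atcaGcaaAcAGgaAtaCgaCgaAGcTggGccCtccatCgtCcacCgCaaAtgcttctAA
Actg2: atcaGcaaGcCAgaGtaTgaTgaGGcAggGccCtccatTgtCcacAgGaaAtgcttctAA
Actb: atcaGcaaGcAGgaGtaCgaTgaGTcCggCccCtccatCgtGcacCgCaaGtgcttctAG
Actg1: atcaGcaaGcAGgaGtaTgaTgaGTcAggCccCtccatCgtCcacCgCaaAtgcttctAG
Over the whole coding sequence, identity between pairs of actins ran from 81.48% to 88.65%, highest for Actb with Actg1. Acta1 shared 86.16% of coding bases with Actc1, and Acta2 shared 84.22% with Actg2, yet neither pair shared a run of 31 identical bases. Of the runs of 31 bases in the main transcript, 95.55% for Acta1, 99.17% for Actc1, 98.5% for Acta2 and 98.54% for Actg2 occurred in no other gene of the annotation. The cytoplasmic actins were harder to tell from other loci. Only 64.71% of the runs in Actb and 42.87% in Actg1 were unique, and none of those in the coding part of Actg1 was. The copies that Actg1 shared most with, Gm12715, Gm8399 and the pseudogene Actg-ps1, held at most 2 estimated counts each in any library. Actb shared 429 of its runs with Lrrc58. Actb and Actg1 levels are therefore less certain than the others. Among the partners, Cnn1 was fully unique (100%), Myh11 (98.94%) and Myl9 (99.54%) nearly so, and Tagln reached only 46.2%, because of the annotated gene Gm48529, and it also overlaps Pcsk7 on the opposite strand. Gm48529 carried no value in the deposited tables, so Tagln counts were not divided with it. Pcsk7, which carried a value, shared 78 of the runs (4.98%). Reads from Gm48529, if any, could not be told from Tagln in the shared runs, so Tagln stays uncertain.

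The 7 libraries held between 25927171 and 36725106 estimated counts, but 5 features, among them Gm42418, Lars2 and the mitochondrial ribosomal RNA gene mt-Rnr2, took 76.4% to 81.4% of them and left 4934057 to 8375626 counts for all other genes. The 2 uninjured libraries went against their shared label. Over the 10 genes, uninjured replicate 1 lay at a distance (root of summed squared log2 differences) of 1.55 and 1.97 from the tenotomy libraries and at 5.50 to 5.77 from the contralateral ones. Uninjured replicate 2 lay at 1.75 to 2.23 from the contralateral libraries and at 6.58 and 6.99 from the tenotomy ones. The uninjured libraries were 5.46 apart, where contralateral libraries were 0.47 to 0.88 apart. Each comparison with the uninjured group is therefore given with and without each of them. The numbers in the sample titles fall into 3 runs, which hold the contralateral libraries with tenotomy replicate 1, then tenotomy replicate 2 with uninjured replicate 1, then uninjured replicate 2 alone. The labels call no run a batch. The tissue label was set against markers. A list of 21 skeletal muscle genes summed to 24670 to 27162 CPM (counts scaled to a common library size) in the contralateral libraries. There 9 tendon genes summed to 180.0 to 299.5 CPM, so that RNA of muscle fibres was plentiful in samples labelled tendon. Ttn alone held 13467, 13222 and 13014 CPM of the muscle sum. CPM are not divided by transcript length, so the 2 sums do not give the ratio of muscle to tendon RNA. The same muscle sum was 2179 and 2195 CPM in the tenotomy libraries, 2778 in uninjured replicate 1 and 18199 in uninjured replicate 2.

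All 10 genes passed the filter on low counts, and all 10 differed between tenotomy and contralateral tendon at an adjusted p under 0.05 in edgeR's quasi-likelihood test, fitted on all 7 libraries. The cytoplasmic actins Actb and Actg1 rose in the cut tendon, and the other 8 genes fell, including every smooth muscle and myofibroblast marker of the set. Of all 16028 features tested, 29% passed, 13.6% higher and 15.4% lower. The 2 groups overlapped for none of the 10 genes, where 63.7% of all features did not overlap. The median log2 fold change of the 10 was -1.49, against -0.0012 over all features. In bulk tissue, fewer cells of a type and less RNA per cell cannot be told apart.

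**Figure D1:**
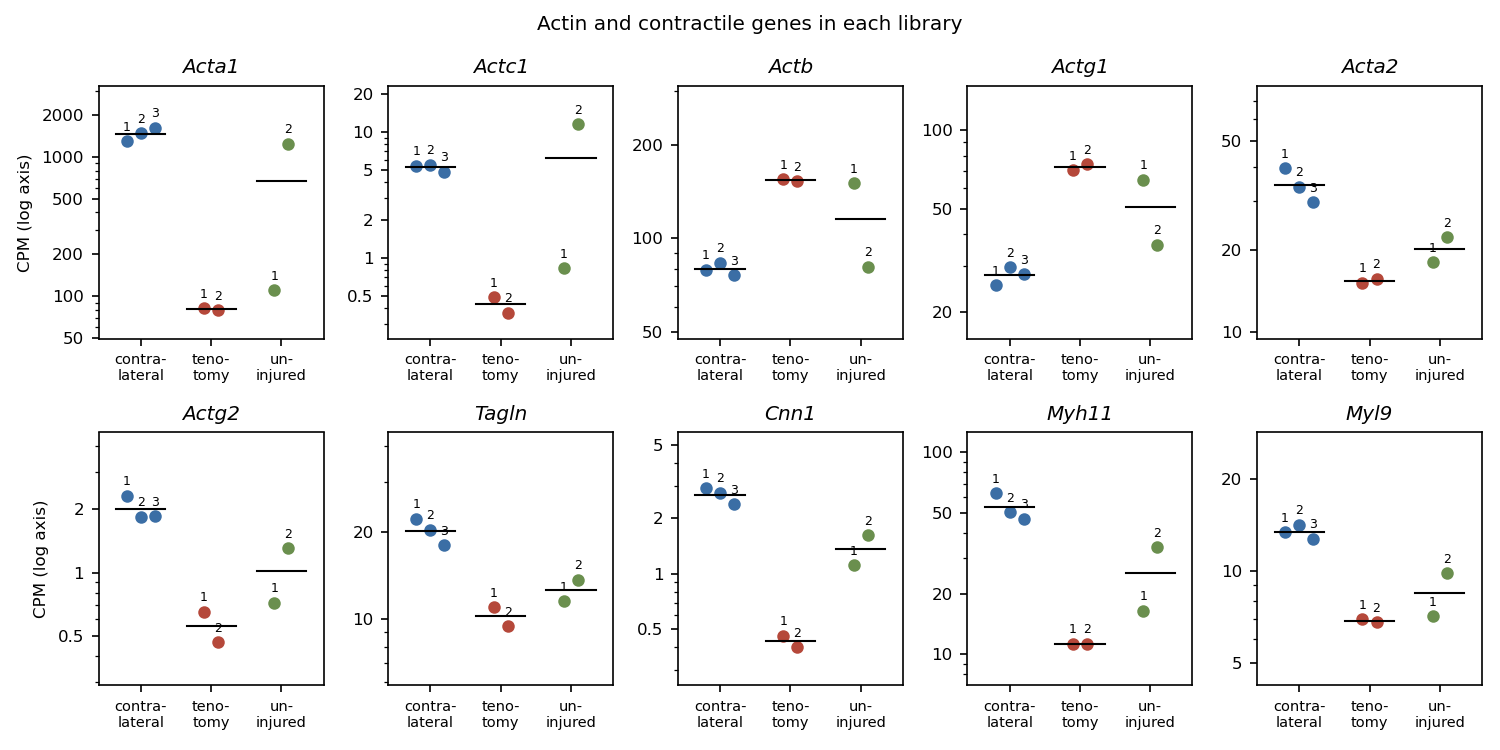
Level of each of the 10 genes in each library, in CPM on a log axis, by group; each point is a library, marked with its replicate number, and each horizontal line is the group mean. The tenotomy libraries lie below the contralateral ones for 8 genes and above them for Actb and Actg1, and the 2 uninjured libraries lie far apart for Acta1, from 110.1 to 1247 CPM.

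The actins of striated muscle fell most. Acta1, the main actin of the skeletal muscle fibre, stood at 1303, 1480.5 and 1623 CPM in the contralateral libraries, at 81.7 and 79.4 in the tenotomy libraries, and at 110.1 and 1247 in the uninjured ones. The contralateral libraries and uninjured replicate 2 were high, and the other 3 were low with no value in between. From a contralateral mean of 1469 ± 160.1 CPM (SD, n = 3) to a tenotomy mean of 80.6 ± 1.61 (SD, n = 2), the fitted log2 fold change was -4.19 ± 0.94 (SE), an 18.2-fold fall (edgeR adjusted p = 0.019). Actc1, the actin of heart muscle that is also made in immature and some mature skeletal fibres, stood at 5.36, 5.49 and 4.82 CPM in the contralateral tendons, 0.490 and 0.367 in the cut ones, and 0.826 and 11.5 in the uninjured ones. Uninjured replicate 2 was the highest of the 7 libraries, and the tenotomy libraries were the lowest, at 18 and 11 counts. The fall was 12.0-fold (log2 -3.58 ± 1.02 SE, edgeR adjusted p = 0.036). Of 8 heart muscle markers, Nppb and Myl7 had no count in any library, Nppa had at most 2 and Tnni3 at most 9, while Tnnt2 reached 14, Myl4 33, Myh6 44 and Ryr2 45 counts. Myh6 (log2 -2.08) and Ryr2 (-1.60) were lower in cut tendon, as Actc1 was, and the 4 that passed the filter summed to 2.78 to 3.90 CPM in contralateral and 1.52 and 1.17 CPM in cut tendon. The 21 skeletal muscle marker genes all fell too, with a median log2 fold change of -3.40, led by Myh2 (a fast myosin heavy chain, -4.72) and Mb (myoglobin, -4.48). The part of skeletal or heart muscle genes in the falls of Acta1 and Actc1 was not tested.

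The cytoplasmic actins went the other way. Actb stood at 79.3, 83.6 and 76.1 CPM in the contralateral libraries, 155.3 and 152.9 in the tenotomy libraries, and 150.9 and 81.0 in the uninjured ones. Uninjured replicate 1 was near the cut tendons and replicate 2 within the contralateral range. The mean rose from 79.7 ± 3.78 (SD, n = 3) to 154.1 ± 1.70 CPM (SD, n = 2), a 1.93-fold rise (log2 0.95 ± 0.27 SE, edgeR adjusted p = 0.034). Actg1 stood at 25.3, 29.7 and 28.0 CPM in the contralateral libraries, 70.2 and 74.1 in the tenotomy libraries, and 64.6 and 36.4 in the uninjured ones. It rose 2.61-fold (log2 1.38 ± 0.25 SE, edgeR adjusted p = 0.017). Here uninjured replicate 2 was above every contralateral library. With the counts of Actb and Actg1 summed, which takes away any doubt about reads shared by that pair, the log2 rise was 1.08 (edgeR adjusted p = 0.024). The rise of Actb did not pass when counts were scaled from TPM and length (log2 0.87, adjusted p = 0.057, over a range of 1.2e-06 to 0.176 across all 22 settings).

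Acta2, the actin that defines both vascular smooth muscle and the myofibroblast, was lower in the cut tendon. It stood at 39.6, 33.9 and 29.9 CPM in the contralateral libraries, 15.1 and 15.7 in the tenotomy libraries, and 18.0 and 22.2 in the uninjured ones. Both uninjured libraries lay between the other groups, replicate 1 near the cut tendons. The mean went from 34.5 ± 4.89 (SD, n = 3) to 15.4 ± 0.365 CPM (SD, n = 2), a 2.24-fold fall (log2 -1.16 ± 0.19 SE, edgeR adjusted p = 0.017). Actg2, the enteric form that is a minor actin of vascular wall, stood at 2.32, 1.85 and 1.86 CPM in the contralateral libraries, 0.653 and 0.467 in the cut tendons, and 0.719 and 1.31 in the uninjured ones. It fell 3.53-fold (log2 -1.82 ± 0.31 SE, edgeR adjusted p = 0.017), on 24 and 14 counts in the tenotomy libraries. The order of the libraries resembled that of Acta2, with uninjured replicate 2 between the groups.

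The 4 partners fell as well, by amounts that differed. Tagln (transgelin, an actin-bundling protein of smooth muscle) stood at 22.3, 20.5 and 18.0 CPM in the contralateral libraries, 11.0 and 9.40 in the tenotomy libraries, and 11.5 and 13.7 in the uninjured ones, a 1.99-fold fall (log2 -0.99 ± 0.18 SE, edgeR adjusted p = 0.017). Myl9, the regulatory light chain of smooth muscle and non-muscle myosin, stood at 13.4, 14.2 and 12.8 CPM, then 6.96 and 6.80, then 7.11 and 9.84 in the same order of groups, a 1.95-fold fall (log2 -0.97 ± 0.18 SE, edgeR adjusted p = 0.017). The standard errors around these 2 falls and that of Acta2 overlapped, and in each the uninjured libraries lay between the other groups. Cnn1 and Myh11 mark the mature contractile state of smooth muscle more strictly. Myh11, the smooth muscle myosin heavy chain, stood at 62.7, 50.6 and 47.0 CPM in the contralateral libraries, 11.3 and 11.3 in the tenotomy libraries, and 16.5 and 34.0 in the uninjured ones, a 4.72-fold fall (log2 -2.24 ± 0.33 SE, edgeR adjusted p = 0.017). Cnn1 (calponin, an inhibitor of the myosin ATPase on actin) stood at 2.92, 2.76 and 2.38 CPM, then 0.462 and 0.400, then 1.11 and 1.62. Its 6.15-fold fall (log2 -2.62 ± 0.25 SE, edgeR adjusted p = 0.015) was the 6th smallest p of all 16028 features, although it rested on 17 and 12 counts in the cut tendons. For Cnn1 both uninjured libraries were above the cut tendons and below the contralateral ones.

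**Figure D2:**
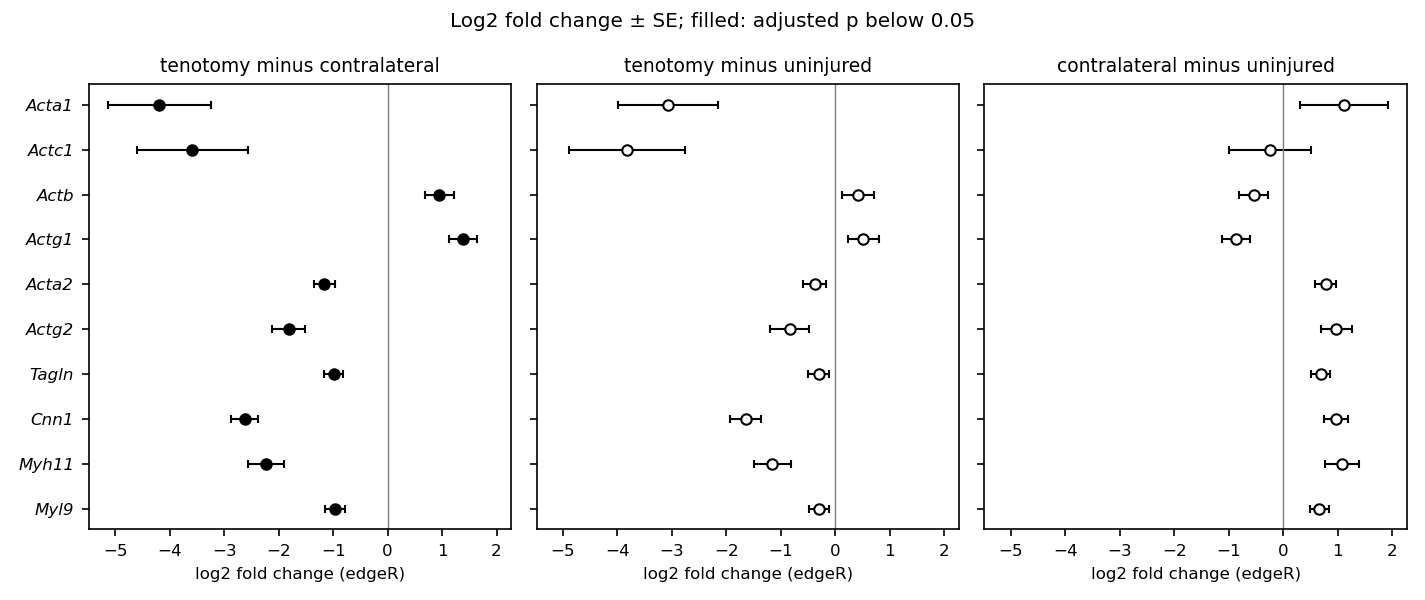
Log2 fold change of each of the 10 genes in the 3 comparisons between groups, with bars of 1 standard error, from the edgeR fit on all 7 libraries; filled points have an adjusted p below 0.05. Only tenotomy against contralateral has filled points, 10 of 10, from -4.19 for Acta1 to 1.38 for Actg1.

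These calls depended on the fit. When any 1 of the contralateral or tenotomy libraries was left out of the 7-library fit, 0 of the 10 genes passed (edgeR adjusted p from 0.0501 to 0.182), with log2 fold changes from -4.27 to 1.43. In those 5 fits no other feature passed either, while 9 of the 10 (without tenotomy replicate 2) or all 10 (without any other) had an unadjusted p under 0.05, against 27.2% to 38.3% of features. With the 2 uninjured libraries set aside, the fit of tenotomy and contralateral alone called all 10 (adjusted p from 1.2e-09 to 6.7e-05), with 46.1% of features called. All 10 passed as well in the 7-library data with DESeq2 (23.4% of features), with the run of title numbers in the model (34.8%), without uninjured replicate 1 (42.9%) and without uninjured replicate 2 (43.5%). In the fit of tenotomy and contralateral alone, all 10 also passed when each contralateral library was left out in turn (41.2% to 48.4% of features). This check was added after the data were seen. For its 2 fits without a tenotomy library, which left 1 in that group, only directions are given. No gene of the 10 changed direction in this comparison in any of the 22 settings tried. Between contralateral tendons and tenotomy replicate 1, which share a run of title numbers, the values given above differ in the same directions. With the run of title numbers in the model, this comparison rested on those same libraries, with tenotomy replicate 1 alone in its group.

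Levels can be compared between genes in TPM, a transcript's share of the library after division by its length, and all TPM values were low because a few features took most of the reads. In contralateral tendon Acta1 was at 174.6 ± 14.0 TPM (SD, n = 3), far above Actb at 7.27 ± 1.17. Then came Acta2 at 3.22 ± 0.81, Actg1 at 2.55 ± 0.30, Myl9 at 2.33 ± 0.46 and Tagln at 2.17 ± 0.48, whose ranges overlapped from each to the next. Myh11 followed at 1.19 ± 0.30, Actc1 at 0.634 ± 0.074, then Actg2 at 0.268 ± 0.066 and Cnn1 at 0.181 ± 0.040, the last pair overlapping. Cut tendon had another order, led by Actb at 12.8 ± 0.86 TPM (SD, n = 2) with Acta1 second at 9.25 ± 0.50 and Actg1 next at 6.06 ± 0.60. Acta2 at 1.37 ± 0.14 and Myl9 at 1.23 ± 0.11 overlapped there, and Tagln stood at 1.03 ± 0.037, Myh11 at 0.243 ± 0.019, Actg2 at 0.0696 ± 0.011, Actc1 at 0.0473 ± 0.0061 and Cnn1 at 0.0277 ± 0.0007. The ratio of Acta1 to Actb TPM summarised the change of order. It was 21.9, 23.3 and 27.7 in the contralateral libraries, 0.732 and 0.718 in the tenotomy libraries, 1.01 in uninjured replicate 1 and 20.8 in uninjured replicate 2.

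A share of the summed actin TPM needs no scaling between libraries. Acta1 and Actc1 together made up 93.0% ± 0.89 of it in contralateral tendon (SD, n = 3) and 31.5% ± 0.53 in cut tendon (SD, n = 2), a difference of -61.5 percentage points (two-sided exact permutation p = 0.1, the smallest that 10 splits allow). Actb and Actg1 together went from 5.19% ± 0.47 to 63.7% ± 0.45. The smooth muscle forms Acta2 and Actg2 took 1.85% ± 0.45 of actin in contralateral tendon and 4.87% ± 0.080 in cut tendon, a higher share (3.03 points, exact permutation p = 0.1) although both genes were lower in CPM. The direction of smooth muscle actin thus depended on the denominator. Among the 4 actins that are not striated, Acta2 and Actg2 took 29.6%, 24.7% and 23.6% in the contralateral libraries and 7.07% and 7.15% in the cut tendons, so that their share fell once Acta1 and Actc1 were set aside. Uninjured replicate 1 (39.3% striated, 5.22% smooth muscle, 55.5% cytoplasmic) lay near the cut tendons. Uninjured replicate 2 (92.3%, 1.37% and 6.38%) lay near the contralateral ones, with 17.6% for smooth muscle forms among the non-striated actins, against 8.60% in replicate 1.

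**Figure D3:**
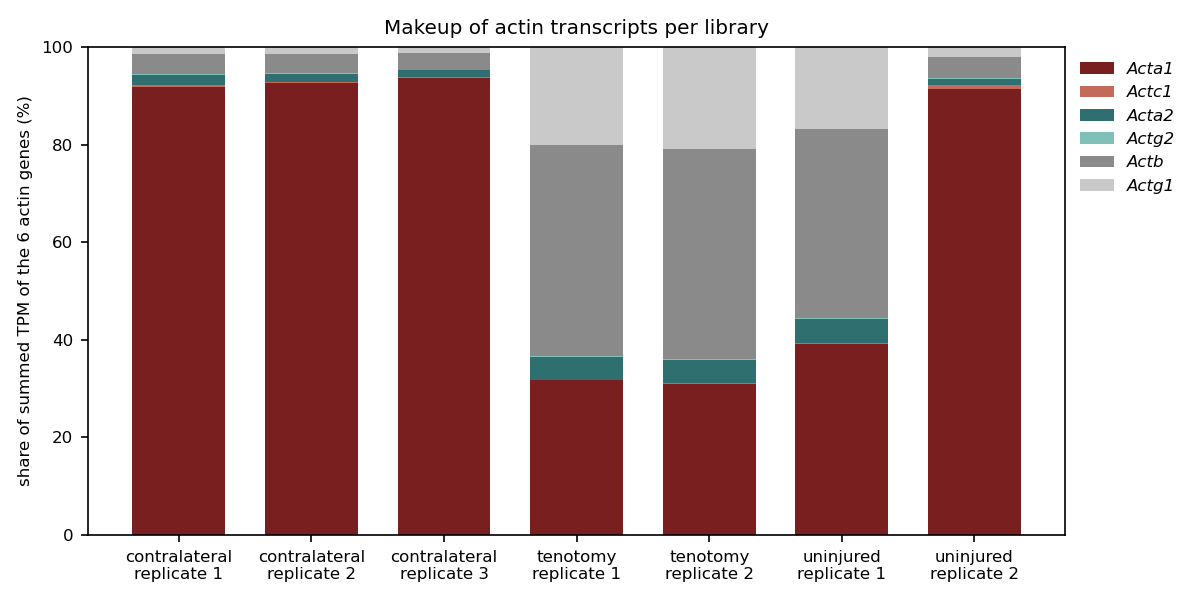
Share of each of the 6 actin genes in their summed TPM, in percent, with 1 stacked bar per library. Acta1 fills 91.4% to 93.6% of the bar in the contralateral libraries and in uninjured replicate 2, and Actb is the largest segment in the tenotomy libraries, at 43.1% and 43.3%.

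The ratio of Actb to Actg1 TPM was 3.08, 2.84 and 2.61 in contralateral tendon, 2.16 and 2.06 in cut tendon, and 2.31 and 2.21 in uninjured tendon. It was thus lower in cut than in contralateral tendon. Actb TPM here include the minor form Actb-206, described below. That form held 0.502, 0.623 and 0.544 TPM in contralateral tendon and 0.0178 and 0 in cut tendon, and its part in the ratio was not tested. Acta1 exceeded Actc1 in TPM by a factor of 251.4, 278.7 and 300.6 in contralateral tendon, 172.5 and 223.9 in cut tendon, and 137.7 and 111.8 in uninjured tendon. By transcript, Acta1, Acta2, Tagln, Cnn1 and Myh11 each had 1 transcript in the tables. Actb-201 carried 94.9% to 99.2% of Actb counts and Actg1-202 carried 90.7% to 98.2% of Actg1 counts. One minor form ran against its gene: Actb-206, a processed transcript with no annotated coding sequence, held 56.1, 91.8 and 93.3 counts in contralateral tendon, 3.28 and 0 in cut tendon, and 10.4 and 38.2 in uninjured tendon. It was picked out after its values were seen. Of its 864 runs of 31 bases, 57 also occur in the Acta1 transcript, and the part of Acta1 reads in its counts was not tested.

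Genes that act with the contractile set were taken as lists. Of 25 binding partners of the stress fibre, 7 rose and 8 fell in cut against contralateral tendon, with a median log2 fold change of 0.05. Cnn2 (non-muscle calponin, 1.63) and Tpm4 (a tropomyosin of non-muscle cells, 1.40) had the largest rises, and Tpm2 (a tropomyosin of muscle, -4.06) and Synpo2 (myopodin, an actin-bundling protein of the muscle Z-disc, -3.20) the largest falls. So Cnn2 was higher where Cnn1 was lower: Cnn2 stood at 2.06, 2.59 and 1.89 CPM in the contralateral libraries and at 6.61 and 6.97 in the cut tendons. Tpm2 is also on the skeletal muscle list. In uninjured replicates 1 and 2, Tpm2 stood at 34.3 and 271.3 CPM and Synpo2 at 11.9 and 51.7. The part of skeletal muscle in the falls of Tpm2 and Synpo2 was not tested. Of 12 genes that set the phosphorylation of the myosin regulatory light chain, the product of Myl9, 0 rose and 6 fell, with a median of -0.78. The largest falls were in Ppp1r12b, a targeting subunit of the myosin phosphatase (-2.58), and in the kinase Mylk4 (-2.55). Mylk4 stood at 118.3, 119.1 and 156.4 CPM in the contralateral libraries, 21.8 and 23.1 in the cut tendons, and 30.0 and 110.6 in the uninjured ones. Ppp1r12b stood at 64.8, 68.9 and 68.5, then 11.2 and 11.3, then 13.9 and 49.2. In both, uninjured replicate 2 was high and replicate 1 low, as for the skeletal muscle sum. The part of skeletal muscle in these falls was not tested. Mylk, the kinase that starts smooth muscle contraction, fell by 1.13 on the log2 scale. Of 20 genes for the assembly and turnover of actin filaments, 13 rose and 3 fell, with a median of 0.90. Tmsb10 (1.95), which binds actin monomers, and Cotl1 (1.79), a coactosin-like filament binder, led the rises, and Cfl2 (the muscle cofilin, -2.53) and Pfn2 (a profilin, -1.91) the falls. Ranges follow for the other settings that kept every contralateral and tenotomy library, apart from the run of title numbers. The stress fibre list gave 6 to 11 rises and 8 to 12 falls. The light chain list gave 0 to 1 and 5 to 7, and the turnover list 10 to 15 and 2 to 4. As for the 10 genes, every list gave 0 calls when a contralateral or tenotomy library was left out of the 7-library fit.

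Of 11 transcriptional regulators of actin genes, 2 rose and 3 fell, with a median of -0.05. Csrp2, a cofactor of SRF in smooth muscle (2.81), and Wwtr1 (TAZ, 0.56) rose, and Tead1 (-1.64) and Myocd (myocardin, the SRF cofactor of cardiac and smooth muscle, -1.53) fell. Myocd was counted only 12 and 15 times in the cut tendons. Srf itself stood at 4.50, 4.92 and 6.40 CPM in the contralateral libraries and at 2.61 and 3.00 in the cut tendons. Its log2 fold change of -0.91 was just past the threshold (edgeR adjusted p = 0.04996), and only 2 of the list fell under 3 other scalings and in DESeq2, and 0 with counts scaled from TPM and length, where the calls of Tead1 and Myocd were lost too.

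**Figure D4:**
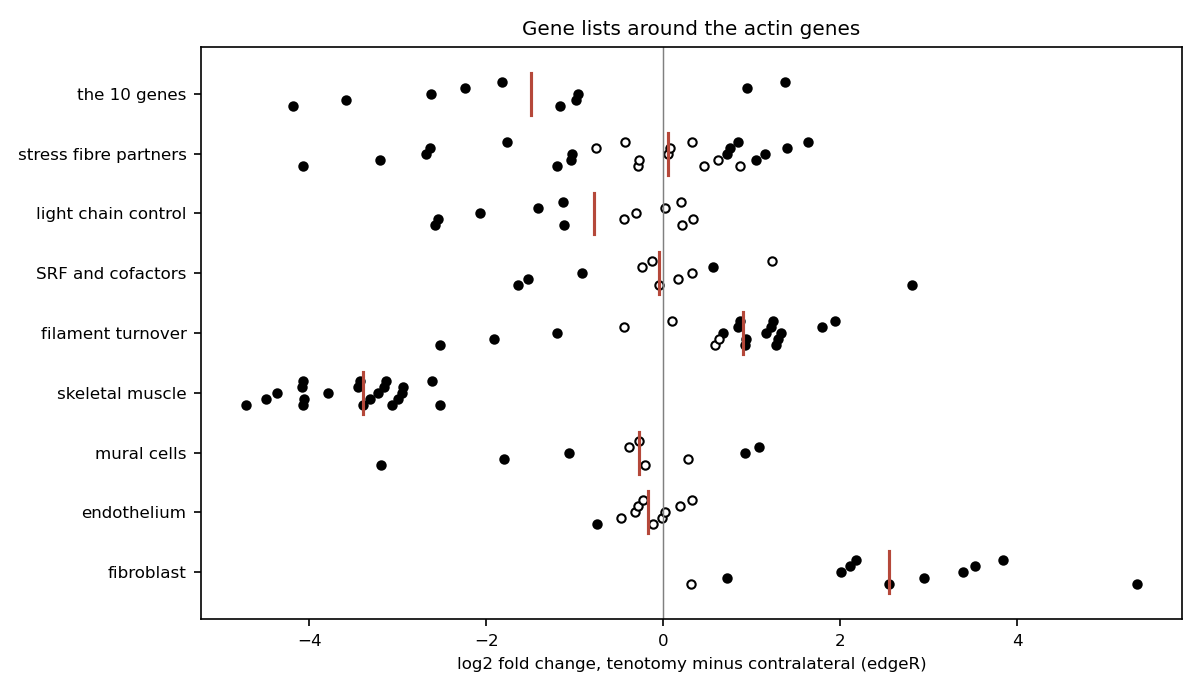
Log2 fold change, tenotomy against contralateral, of each tested gene in lists of contractile regulators and of cell type markers. Filled points have an adjusted p below 0.05 in edgeR, and red lines are list medians. Each list is a row, and the height of a point within its row carries no meaning. The medians run from -3.40 for skeletal muscle to 2.55 for fibroblasts.

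Markers of the cell types that make these proteins did not move as 1 group. Of 9 tested markers of mural cells (pericytes and vascular smooth muscle), 2 rose and 3 fell, with a median of -0.27. Cspg4 (1.08) and Pdgfrb (0.92, a receptor that fibroblasts also express) rose, and Des (-3.19), which skeletal muscle also makes, Abcc9 (-1.80) and Rgs5 (-1.07) fell. Notch3, the receptor of arterial smooth muscle, did not pass (-0.39, edgeR adjusted p = 0.12), and stood at 11.4 to 13.5 CPM in contralateral and 9.40 to 9.90 CPM in cut tendon. The mural list summed to 317.7 to 359.9 CPM in the contralateral libraries, 125.5 and 128.6 in the cut tendons, and 130.1 and 279.4 in the uninjured ones. Des made up 52.7% to 54.6% of it in the contralateral libraries and 15.7% and 16.3% in the cut tendons. Without Des the sum was 150.1 to 163.5 CPM in contralateral, 105.8 and 107.6 in cut, and 107.4 and 156.0 in uninjured tendon. Endothelial markers, for vessels as such, gave 1 fall of 10 (Kdr, -0.74, edgeR adjusted p = 0.048) with a median of -0.17. That call was close to the threshold: 0 of the list fell under upper quartile scaling, in DESeq2 and with counts scaled from TPM and length, and 3 fell in the fit of the 2 groups alone. The endothelial sum was 70.9 to 82.3 CPM in contralateral tendon against 72.8 and 63.0 in cut tendon, and without Vwf, which was 15.7 and 3.73 CPM in the cut tendons, it was 65.2 to 70.4 against 57.0 and 59.3. Fibroblast markers went up, 10 of 11, with a median of 2.55. Postn, a matrix protein of wound fibroblasts, rose by 5.36 and Lum by 3.85 (log2), and the fibroblast sum was 1166 to 1463 CPM in contralateral and 8406 and 8464 CPM in cut tendon. So Acta2, Tagln and Cnn1 were low in the libraries where fibroblast genes were high. Of 10 macrophage markers 9 rose (median 1.98), led by Lyz2 (2.57) and Cd68 (2.51), and of 9 tendon markers 5 rose (median 1.30), led by Col14a1 (3.51) and Egr1 (1.92). Of 7 tested markers of immature muscle, 1 rose (Ncam1, 0.67) and 1 fell (Myh3, -5.01). Neither count was firm, with 0 rises in DESeq2 and with counts scaled from TPM and length, 0 falls in limma-voom and 4 falls in the fit of the 2 groups alone. Ranges follow for the other settings that kept every contralateral and tenotomy library, apart from the run of title numbers. The heart list gave 1 to 2 falls and the mural list 3 to 4. The fibroblast list gave 9 to 10 rises, the macrophage list 8 to 10 and the tendon list 5 to 7. The part of any of these cell types in the levels of the 10 genes was not tested.

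Promoter sequences, from 250 bases before to 50 after the start in RefSeq's annotation of GRCm38.p6, were at hand for 6 of the 10 genes (Acta1, Acta2, Actc1, Actg1, Cnn1 and Myl9). They are shown because the set moved in both directions while many of its genes share the CArG box. The box was searched by its consensus, on both strands, and 535 of the 32851 windows in the table held it (1.629%). Windows of 4 of the 6 genes held it, and 60 bases around each box are given below on the gene's strand, with the box in capitals.
Acta1: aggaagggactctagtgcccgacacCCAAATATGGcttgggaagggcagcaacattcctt
Actc1: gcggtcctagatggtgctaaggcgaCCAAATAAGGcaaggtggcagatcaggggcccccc
Actg1: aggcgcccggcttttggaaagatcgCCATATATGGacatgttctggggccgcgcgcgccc
Myl9: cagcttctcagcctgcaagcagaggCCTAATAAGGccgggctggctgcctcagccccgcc
The stretches lie at chr8:123894814-123894873 (minus strand) for Acta1, chr2:114052888-114052947 (minus) for Actc1, chr11:120348551-120348610 (minus) for Actg1 and chr2:156775278-156775337 (plus) for Myl9. Their boxes begin 73, 47, 90 and 161 bases before the start. The 4 genes with a box in the window were Acta1, Actc1 and Myl9, which were lower in cut tendon, and Actg1, which was higher. The windows of Acta2 and Cnn1 held no match, which says only that these letters are not in that stretch.

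In GENCODE M21 on GRCm38, the genes lie apart from one another. Acta2 (ENSMUSG00000035783.9) is at chr19:34241090-34255590 and Acta1 (ENSMUSG00000031972.5) at chr8:123891769-123894751, both on the minus strand. Actb (ENSMUSG00000029580.14) is at chr5:142903115-142906754, Actg1 (ENSMUSG00000062825.15) at chr11:120345690-120348542 and Actg2 (ENSMUSG00000059430.14) at chr6:83512905-83536265, also on the minus strand. Chromosome 2 carries Actc1 (ENSMUSG00000068614.7) at chr2:114047282-114053548 on the minus strand and Myl9 (ENSMUSG00000067818.6) at chr2:156775420-156781658 on the plus strand. Chromosome 9 carries Cnn1 (ENSMUSG00000001349.5) at chr9:22099216-22109630 on the plus strand and Tagln (ENSMUSG00000032085.5) at chr9:45929619-45936058 on the minus strand. Myh11 (ENSMUSG00000018830.10) is at chr16:14194535-14291372 on the minus strand. Unless a transcript is named, the counts, CPM and TPM above are summed over each gene's transcripts.

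Cut tendon was then set against the tendons of uninjured mice, a comparison that shares the tenotomy libraries with the one above. In edgeR's quasi-likelihood test 0 of the 10 genes passed (adjusted p from 0.45 to 0.598), where 0% of all features passed. At an unadjusted p under 0.05 there were 5, all lower in cut tendon: Acta1 (log2 -3.07), Actc1 (-3.83), Actg2 (-0.84), Cnn1 (-1.65) and Myh11 (-1.16), against 10.9% of all features. DESeq2 gave no adjusted p for Actc1, Actg2 and Cnn1, and of the other 7 it passed 2, Acta1 (-3.06, adjusted p = 0.009) and Myh11 (-1.15, adjusted p = 0.047), where 0.905% of features passed. In limma-voom 0 passed. Cnn1 had the 9th smallest p of all features in edgeR (unadjusted p = 0.00043). The groups did not overlap for any of the 10, 2 higher and 8 lower in cut tendon, where 20.1% of features lay apart higher and 20.4% lower (40.5% in all). For several genes uninjured replicate 1 lay close to the cut tendons, such as 7.11 against 6.96 and 6.80 CPM for Myl9. Acta2 gave -0.38, Tagln -0.30, Myl9 -0.30, Actb 0.41 and Actg1 0.51, none of which passed.

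Leaving out uninjured replicate 1 raised the count to 9 of 10, with Actb (0.93) and Actg1 (0.99) higher and 7 lower, where 25.1% of features passed. Among the 7 were Acta1 (-3.95, edgeR adjusted p = 8.6e-08), Acta2 (-0.52, adjusted p = 0.035) and Cnn1 (-1.88, adjusted p = 0.00063), and the exception was Tagln (adjusted p = 0.081). Over the 17 settings of this comparison the adjusted p of Acta2 ran from 0.035 to 1, that of Acta1 from 8.6e-08 to 1, that of Cnn1 from 0.00063 to 1 (with none in DESeq2) and that of Tagln from 0.081 to 1. Leaving out uninjured replicate 2 gave 0 of 10 (0.083% of features), with log2 fold changes from -1.35 to 0.16. The run of title numbers in the model gave 0 of 10 (0.025% of features), with log2 fold changes from -1.47 to 0.20. The result thus depended on which of the 2 uninjured libraries was kept, and in either case that group was a single library, taken to vary like the others. Cnn1 was lower in cut tendon in all 17 settings, with log2 values from -1.88 to -1.35.

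The last comparison was contralateral against uninjured tendon, which shares 1 group with each of the others. Again 0 of 10 passed in edgeR (adjusted p from 0.215 to 0.876), as did 0% of all features. At an unadjusted p under 0.05, 6 were higher in contralateral tendon and 1 lower, against 19.2% of features: Acta2 (log2 0.78), Actg2 (0.98), Tagln (0.69), Cnn1 (0.97), Myh11 (1.08), Myl9 (0.66) and, lower, Actg1 (-0.87). DESeq2, which gave no adjusted p for Actg2 and Cnn1, passed Acta2 (0.78, adjusted p = 0.036) and Myh11 (1.08, adjusted p = 0.045), where 1.39% of features passed, and limma-voom passed 0. The groups did not overlap for 8 of the 10 (35.5% of features), and they did for Actb and Actc1. So the contralateral libraries were the highest of the 7 for Acta1, Acta2, Actg2, Tagln, Cnn1, Myh11 and Myl9, above both uninjured libraries as well as both cut tendons. Without uninjured replicate 1, 1 of 10 passed (Actc1, -1.14, edgeR adjusted p = 0.0048, over a range of 6.9e-06 to 0.936), where 0.617% of features did. Without uninjured replicate 2, all 10 passed, 8 higher and 2 lower (adjusted p from 1.4e-07 to 0.0034), where 32% of features did. With the run of title numbers in the model, the uninjured group rested on replicate 1 alone. That library was corrected by the difference between the 2 tenotomy libraries, which lie in different runs. The log2 fold changes of the 10 genes then ran from -1.15 to 3.70.

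Across the 7 libraries, the 10 genes fell into 2 patterns, described here with no test since the libraries share groups and scaling. Actb and Actg1 correlated positively with each other and negatively with the rest. The rest correlated positively among themselves, such as Acta1 with Myh11 (0.966) and with Acta2 (0.894). The genes closest to Acta1 by Pearson correlation of log2 CPM, out of 2012 candidates, were Tnnt3 (0.9994), Klhl24 (0.9994), Srl (0.9992), Cacna1s (0.9991) and Gyg (0.999), of which Tnnt3 is fast skeletal troponin T and Cacna1s the calcium channel of the muscle T-tubule. The genes closest to Acta2 were Fmo2 (0.9896), Fto (0.987), Lrba (0.9807), Hipk1 (0.9803) and Ppp1r3c (0.9803). Acta2 itself was close to Tagln (0.986), and Actb ran opposite to Acta1 (-0.996).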

How the data were processed

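RNA-seq of 7 mouse tendon libraries was analysed. Each deposited table listed 103639 transcripts with an estimated count, a TPM value and 2 length columns (full and effective), per the file headers. The submitters' processing notes name kallisto and FastQC 0.11.4 and list the build GRCh38, a human build, whereas the identifiers in the tables are of mouse transcripts. The annotation behind them is not given in the sources used here. The estimated counts the authors deposited are not normalized, and their TPM are scaled by effective length.

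Identifiers were matched without version to GENCODE M21 (GRCm38): 101510 matched, 57625 of them in the same version, and 2129 were kept as single features. Estimated counts were summed per gene and rounded. Features were kept by filterByExpr (minimum count 10), scaled by TMM and tested with edgeR 4.0.16 (quasi-likelihood, 3 group means, all libraries, R 4.3.3), with Benjamini-Hochberg adjustment over the 16028 features and a threshold of 0.05. CPM use TMM-scaled library sizes, and a log2 CPM adds a prior count of 2. Shares of actin TPM were compared by exact permutation (scipy 1.17.1). Alternatives were upper quartile and RLE scaling, TMM without muscle and mitochondrial genes, DESeq2 1.42.0, limma-voom 3.58.1, no filter, the compared groups alone, the run of title numbers as a covariate, counts scaled from TPM and length, summed actin pairs, and each library left out. The scripts were tested on simulated data. Coding sequences and runs of 31 bases came from the GENCODE M21 transcripts, and promoters from RefSeq (GRCm38.p6). Depth, 25927171 to 36725106 estimated counts per library, limits genes of few counts most.

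The members and the gene lists were chosen with earlier results of these data known. All 10 members are named. Of each list, the 2 largest rises and 2 largest falls past the threshold are named, and for Acta1 and Acta2 the 5 most correlated genes with a mean log2 CPM of at least 3. Genes outside this rule (Srf, Mylk, Notch3, Rgs5, Vwf and the heart genes not past the threshold) were named after their values were seen.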

Additional observations from a re-analysis of the deposited data

How the results depend on the processing

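In tenotomy against contralateral tendon, the 10 genes kept their direction in each of the 22 settings. The number past the threshold was 10 in most settings. The number was 9 in limma-voom (27.9% of features), which lost Actc1 (log2 -3.55, adjusted p = 0.102). With counts scaled from TPM and length (19.9% of features) the number was also 9, and Actb was lost. It ranged from 0 to 10 when a library was left out, and in the comparisons with the uninjured group it depended on which uninjured library was kept. DESeq2 passed 2 genes in each comparison with the uninjured group, of 7 (tenotomy) and 8 (contralateral) with an adjusted p. With the run of title numbers as a covariate, log2 fold changes of the 10 genes ran from -1.15 to 3.70 in contralateral against uninjured. Actc1 changed sign in that comparison, from -0.25 to 0.72 in limma-voom, to 2.24 with the title-number covariate, to 1.11 with Acta1 and Actc1 summed, and from -1.14 to 2.66 with a library left out (2.66 without uninjured replicate 2, -1.14 without replicate 1); summing puts in the far larger Acta1 count, and the cause of the others was not tested. The difference in striated actin share, tenotomy minus contralateral, was -61.5 points from TPM and -66.0 from estimated counts, and -61.9 to -61.0 with a library left out. The smooth muscle share changed sign without uninjured replicate 2 in tenotomy minus uninjured (-0.345 points, range -0.345 to 3.51) and without uninjured replicate 1 in contralateral minus uninjured (0.482 points, range -3.37 to 0.482). Upper quartile scaling moved the median log2 fold change of all features to 0.11. No paired analysis was possible because the labels give no replicate numbers and do not tie libraries to animals. The low counts of Cnn1, Actg2 and Actc1 in cut tendon limit their precision.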
